A study of Mus musculus with 12 samples.

Results

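Gpi1, Gapdh and Pgk1 encode 3 enzymes of glycolysis and are 3 of the 47 genes that could be named on an m6A microarray of the mouse kidney. Gpi1 was chosen through the single array probe whose transcript accession belongs to it (A_51_P426886). Gapdh and Pgk1 were chosen through the array's mouse control probes, 1 for the 3′ end and 1 for the 5′ end of each transcript. These 5 probes, each printed as 10 spots, were read beside the array's 60706 non-control probes, Gpi1 included, of which 50 carry a transcript accession and 45 a gene symbol.

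Kidneys came from 6 male C57BL/6 mice aged 6 to 8 weeks, 3 wild type (WT) and 3 named METTL3-cKO (cKO), a conditional knockout of the methyltransferase that writes m6A on messenger RNA. All 6 mice received glyoxylate, which the body turns into oxalate, injected into the abdomen once a day for 7 days (100 mg/kg, 200 µl) to cause calcium oxalate deposits in the kidney. Both genotypes thus had the same injections, no saline-treated kidney was analysed here, and crystal deposition itself is not among the measurements. The labels give neither the Cre driver nor the cells in which Mettl3 was deleted. RNA of each kidney was divided with an m6A antibody into an immunoprecipitate (IP, Cy5) and the supernatant (Cy3), and both fractions were hybridised together, so that 12 samples lay on 6 arrays, called biological replicates in the labels.

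Glycolysis splits glucose into pyruvate and yields ATP and NADH. Gpi1, glucose-6-phosphate isomerase, makes fructose 6-phosphate at an early step, where glucose can also leave for the pentose phosphate pathway. Gapdh carries out the oxidation step that yields NADH, and Pgk1 follows it and makes the first ATP of the pathway. In the kidney the proximal tubule lives mainly on fatty acids and can run the reversible steps backwards to make glucose, while distal segments use glycolysis more. N6-methyladenosine (m6A) is a mark on messenger RNA that often lies near the stop codon and affects the transcript's stability and translation.

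No spot was saturated. Throughout, values of 3 kidneys are given in the order of arrays 1, 2 and 3. The signal was well above background for 52.1% to 56.1% of probes in the IP channel. In the supernatant this held for 38.4%, 52.4% and 31.7% of probes in the WT kidneys and for 56.9%, 49.9% and 53.5% in the cKO kidneys. WT arrays 1 and 3 share 1 scan time, and WT array 2 shares the other with the 3 cKO arrays. No probe could be named Mettl3, so whether the deleted gene fell in cKO is not known here. Of 33 markers of kidney cell types, 1 had a named probe (Mzb1, a plasma cell gene), so the labelled tissue was not checked. The 35-gene glycolysis list had no named gene beyond Gpi1, Gapdh and Pgk1. Lists for gluconeogenesis (11 genes), the pentose phosphate pathway (7), glyoxylate and oxalate metabolism (12) and the m6A machinery (18) had no named gene and are not analysed here.

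The first question was how the 3 transcripts divide between the m6A immunoprecipitate and the supernatant. They fell on different sides of a common reference, defined below. Gpi1 lay above it, Gapdh lay below it at both ends, and Pgk1 at its 3′ end lay between them. All values are log2 values. A level is the signal in 1 channel relative to the median of 17780 reference probes, those detected in IP and supernatant of all 6 kidneys, and the m6A ratio is the IP level minus the supernatant level. A ratio of 0 therefore lies close to the typical reference probe, whose median ratio was -0.10 to -0.03 over the arrays. Below, the array median means this reference and not the median of all probes. The ratio is no measure of the share of molecules that carry m6A.

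The m6A ratio of Gpi1 was 0.66, 0.98 and 1.02 in the WT kidneys and 0.48, 0.79 and 0.75 in the cKO kidneys. It was above 0 on all 6 arrays, and the genotypes overlapped. The mean was 0.89 ± 0.20 (SD, n = 3) in WT, 1.85-fold over the array median, and 0.67 ± 0.17 in cKO, 1.60-fold. Both means differed from 0 in limma's moderated test with Benjamini-Hochberg adjustment over the 28088 tested probes (adjusted p = 0.00111 and 0.00588). These are the probes that passed the detection filter for the ratio. Such a call was common among them: 67.7% were called in WT and 58.1% in cKO, and 39.1% and 31.9% were called above the median. Gpi1 stood higher than 71.9% of the tested probes in WT and 72.4% in cKO.

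The call on Gpi1 rests on the reference. Scaled to the median of all probes instead, its ratio was 0.45 in WT and 0.53 in cKO and no longer passed (limma, adjusted p = 0.0894 and 0.0546). That scaling moved every ratio by -0.44 in WT and by -0.15 in cKO on average. With it, 38.7% of the probes called in WT lay above the median, against 57.7% with the scaling used here.

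Gapdh, often used as a reference transcript, had m6A ratios below the array median. At its 3′ end the m6A ratio was -1.53, -0.86 and -1.18 in the WT kidneys and -0.92, -0.84 and -0.91 in the cKO kidneys. At its 5′ end it was -1.34, -0.93 and -1.59 in WT against -1.23, -0.98 and -1.04 in cKO. Both probes were below 0 on all 6 arrays, and WT array 2 was the least negative WT array at both ends.

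The Gapdh means were -1.19 ± 0.33 in WT and -0.89 ± 0.05 in cKO at the 3′ end, which is 2.28-fold and 1.85-fold below the median (SD, n = 3). At the 5′ end they were -1.29 ± 0.33 and -1.08 ± 0.13, or 2.44-fold and 2.12-fold below it. All 4 means differed from 0 in limma's test, with adjusted p = 0.000333 and 0.00212 at the 3′ end and 0.000246 and 0.000870 at the 5′ end. Of the tested probes, 28.7% were called below the median in WT and 26.2% in cKO. Between 13.2% and 16.8% of the tested probes lay lower than a Gapdh probe.

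Actb, the cytoplasmic actin gene and the other common reference transcript, sat beside Gapdh. Its m6A ratio was -1.54, -1.17 and -1.09 in the WT kidneys and -1.45, -1.15 and -1.33 in the cKO kidneys. The mean of the Gapdh probes exceeded that of Actb by 0.18 ± 0.25 (SD, n = 6 arrays), a difference that did not pass an exact sign-flip permutation test (two-sided p = 0.15625).

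Pgk1 at its 3′ end varied over a wide range, which cKO array 1 extended. There the m6A ratio was 0.08, 0.59 and 0.57 in the WT kidneys and -0.37, 0.46 and 0.35 in the cKO kidneys. Array 1 was the lowest array of each genotype, and cKO array 1 was the only one below 0. The means, 0.41 ± 0.29 in WT and 0.15 ± 0.45 in cKO (SD, n = 3), did not pass limma's test against 0 (adjusted p = 0.106 and 0.560). With normexp background correction the WT mean was 0.54 and passed (adjusted p = 0.0129, limma).

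The 5′ probe of Pgk1 was near background. Its processed signal was 79.7 to 105.5 in the IP and 81.7 to 154 in the supernatant, on the scanner's linear scale. On WT arrays 1 and 3 none of its 10 spots was well above background in the supernatant, and it passed the ratio filter through the cKO arrays. Its m6A ratio was 0.09, -0.45 and 0.07 in WT against -0.27, -0.11 and -0.12 in cKO, with adjusted p = 0.612 and 0.407 against 0 in limma's test. Scaled to the median of all probes, its WT mean was -0.54 and passed (adjusted p = 0.0373, limma). Its spots on 1 array differed by an SD of 0.349 to 0.659, against at most 0.152 for the other 4 probes, so what follows gives its values as a description and reads nothing from them.

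**Figure D1:**
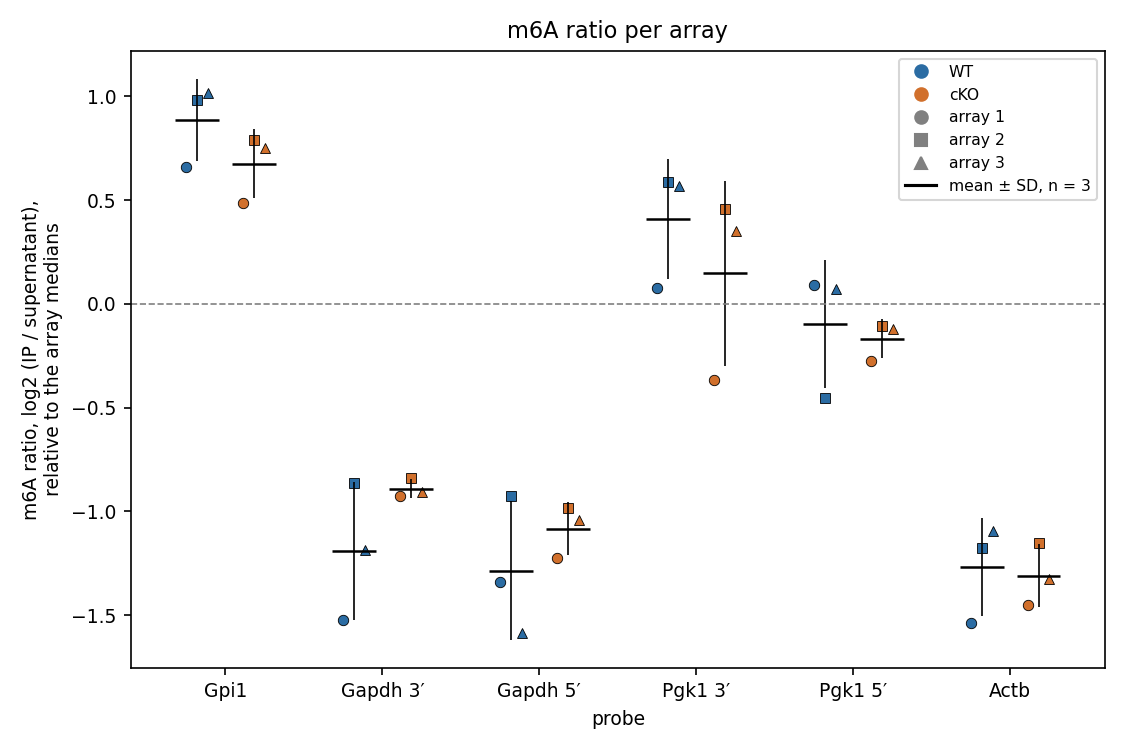
The m6A ratio (log2 of IP over supernatant relative to the array median, vertical axis) of the 5 probes of Gpi1, Gapdh and Pgk1 and of Actb on each of the 6 arrays, with WT and cKO apart; points are arrays, and black lines are means with SD (n = 3). Gpi1 lies between 0.48 and 1.02 on every array, and both Gapdh probes lie between -1.59 and -0.84.

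The genes were next compared with each other on the same array, where each array serves as its own control. Gpi1 exceeded Gapdh (mean of both ends) by 2.09, 1.88 and 2.40 in the WT kidneys and by 1.56, 1.70 and 1.72 in the cKO kidneys. The mean difference in m6A ratio was 1.89 ± 0.31 (SD, n = 6 arrays), or 3.71-fold, and it was above 0 on 6 of 6 arrays. Pgk1 at its 3′ end exceeded Gapdh by 1.51, 1.48 and 1.95 in WT against 0.71, 1.37 and 1.33 in cKO, with a mean of 1.39 ± 0.40 or 2.62-fold. Gpi1 exceeded the 3′ end of Pgk1 by 0.58, 0.40 and 0.45 in WT against 0.85, 0.33 and 0.40 in cKO, a smaller gap of 0.50 ± 0.19 or 1.42-fold.

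Each of the 3 gaps had p = 0.031 in the exact two-sided sign-flip permutation test, the smallest that 6 arrays can give, and 0.031 after Benjamini-Hochberg adjustment over the 3 pairs. These tests were added after the data had been seen. Gpi1 was by then known to lie above 0 and Gapdh below 0 on all 6 arrays, so the p of that pair was fixed in advance. The lowest ratio of Pgk1 at its 3′ end, -0.37, lay above the highest Gapdh ratio, -0.84, so the p of that pair was fixed too. The values of Gpi1 and Pgk1 on each array had also been seen, so none of the 3 p-values is read as support. As a description, the m6A ratio ran in the order Gpi1, Pgk1 at its 3′ end, Gapdh on all 6 arrays. Cy5 always marked the IP, so a dye effect of a probe and the recovery of its transcript cannot be told apart. Gapdh has many processed pseudogenes in the mouse genome, and whether their transcripts bind its probes was not tested.

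The mean gaps to Gapdh were smaller in cKO, a difference that did not pass its test. The gap from Gpi1 to Gapdh differed by -0.46 (cKO minus WT) and that from Pgk1 to Gapdh by -0.51, and in both the 3 cKO arrays lay below the 3 WT arrays. Neither passed an exact permutation test of 3 against 3 arrays (two-sided p = 0.1, the smallest it allows, and 0.15 adjusted over the 3 pairs). Both gaps use the same Gapdh values, so they are not independent. Of single tested probes, 23.6% had m6A ratios that did not overlap between the genotypes, and the share among other pairs was not computed. Among the 4 arrays of 1 scan, where WT array 2 is the only WT array, the differences were -0.22 and -0.35. The spread of the m6A ratio over the tested probes was also smaller in cKO. Its interquartile range was 1.58, 1.71 and 1.93 in the WT kidneys and 1.30, 1.40 and 1.43 in the cKO kidneys. Within WT it did not follow the order of the gaps, and its part in the result was not tested. The gap from Gpi1 to Pgk1 differed by 0.05 (p = 0.9, exact permutation test).

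**Figure D2:**
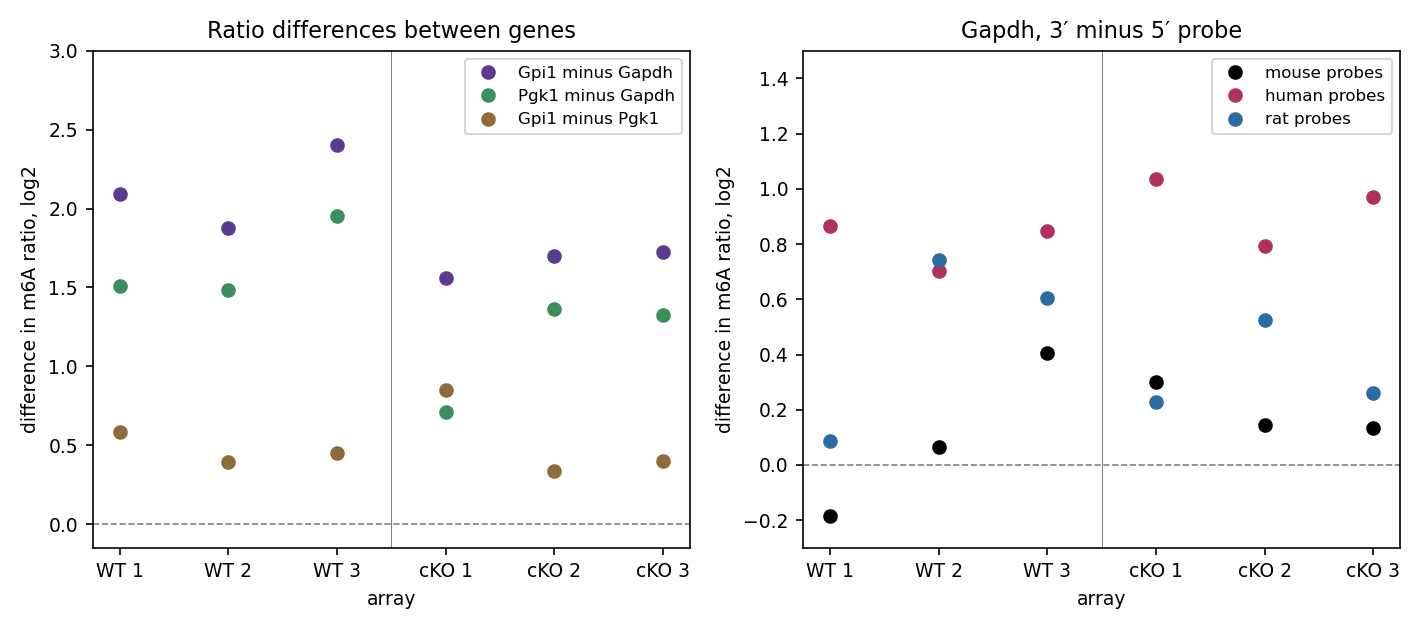
Differences in m6A ratio (log2, vertical axis) on each of the 6 arrays (horizontal axis), between pairs of genes on the left, coloured by pair, and between the 3′ and 5′ probes of Gapdh on the right, coloured by the species the control probes are named for. The gap from Gpi1 to Gapdh runs from 1.56 to 2.40, while the 3′ minus 5′ difference of the mouse Gapdh probes runs from -0.19 to 0.40 and crosses 0.

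The 3′ and 5′ probes of a transcript were then compared. Whether the RNA was fragmented before the immunoprecipitation is not given here, so a difference between ends does not locate m6A. For Gapdh the m6A ratio at the 3′ end minus that at the 5′ end was -0.19, 0.07 and 0.40 in the WT kidneys and 0.30, 0.14 and 0.13 in the cKO kidneys. It was above 0 on 5 of 6 arrays, with a mean of 0.14 ± 0.20 (SD, n = 6 arrays). It did not pass the exact sign-flip permutation test (two-sided p = 0.15625). The genotypes differed by 0.10 in this measure (exact permutation p = 0.7).

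For Pgk1 the 3′ minus 5′ difference was -0.01, 1.04 and 0.50 in WT against -0.09, 0.56 and 0.47 in cKO. Its mean of 0.41 ± 0.42 (SD, n = 6 arrays) rests on the 5′ probe near background, so no test of it is read.

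The second question was whether deletion of Mettl3 changed the m6A ratio of these genes. No change was detected: 0 of the 5 probes passed limma's test of the ratio, 0 had an unadjusted p under 0.05, and WT and cKO overlapped for each. The 5′ probe of Pgk1, which entered through the cKO arrays, adds nothing to that count. Over all tested probes 0.00356% were called, which is 1 of 28088, while 16.4% had an unadjusted p under 0.05 and 23.6% had genotypes that did not overlap. The median difference of the 5 probes was -0.07, the value of the 5′ probe of Pgk1, against -0.05 over all tested probes. The other 4 lay between -0.26 and 0.30.

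The m6A ratio of Gpi1 differed by -0.21 ± 0.22 (cKO minus WT, SE; adjusted p = 0.642 in limma's test), with a 95% interval from -0.71 to 0.29. Among the 4 arrays of 1 scan the value was -0.31. Gapdh differed by 0.30 ± 0.23 at its 3′ end (adjusted p = 0.539, interval -0.24 to 0.84) and by 0.20 ± 0.24 at its 5′ end (adjusted p = 0.691, interval -0.35 to 0.75). Within the scan of 4 arrays those values turned to -0.03 and -0.16, so the direction for Gapdh changed without WT arrays 1 and 3. Leaving out any 1 array kept the Gapdh differences above 0, at 0.13 to 0.46 (3′) and 0.05 to 0.38 (5′).

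Pgk1 differed by -0.26 ± 0.29 at its 3′ end (limma, adjusted p = 0.667, interval -0.93 to 0.40) and by -0.44 within that scan. At its 5′ end the difference was -0.07, and 0.29 within the scan, from a probe near background. Scaled to the median of all probes, the ratio differences were 0.59 and 0.50 for Gapdh (3′, 5′), 0.08 for Gpi1 and 0.03 for Pgk1 (3′). With the scaling used here, the intervals of the 4 bright probes leave room for changes in the m6A ratio of up to 1.90-fold. With 3 arrays per genotype, smaller changes can go undetected.

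**Figure D3:**
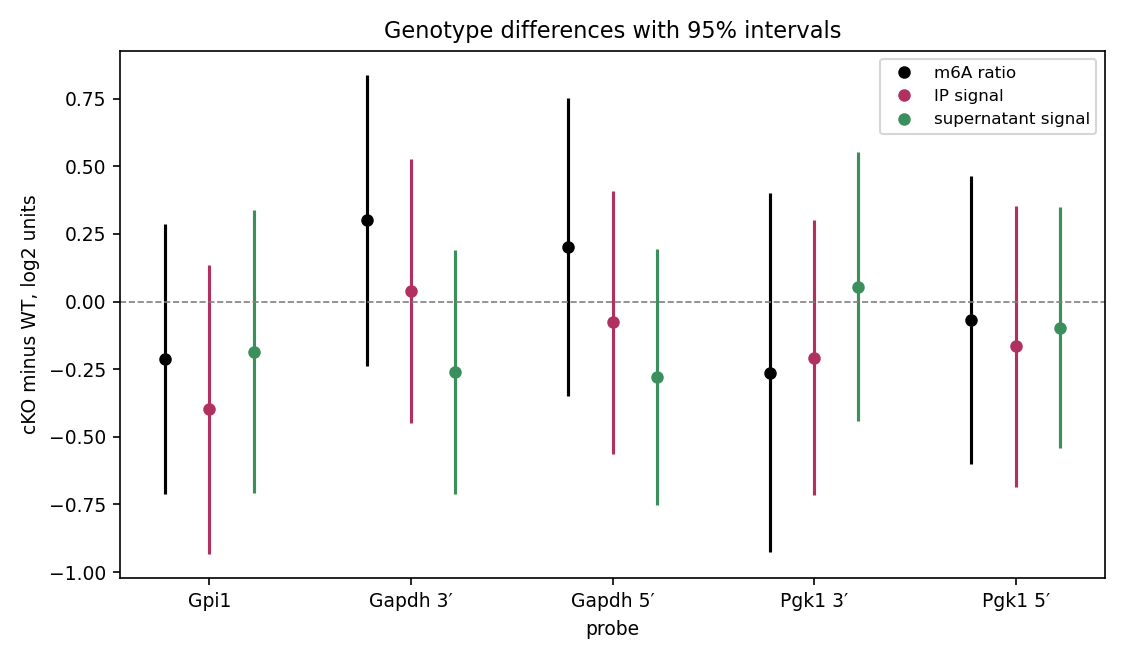
Differences between cKO and WT (cKO minus WT, log2, vertical axis) in m6A ratio, IP level and supernatant level for the 5 probes; points are fitted differences and bars are 95% intervals. Every interval includes 0.

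The levels behind the ratios were compared in each fraction. In the IP, Gpi1 stood at 6.20, 6.13 and 6.64 in the WT kidneys and at 5.87, 5.77 and 6.13 in the cKO kidneys. Of the 5 probes its IP level had the widest gap between genotypes, -0.40 ± 0.24 (SE; limma, adjusted p = 0.546, interval -0.93 to 0.14). The gap was -0.20 within the scan of 4 arrays. Actb, outside these 5 probes, had an IP difference as wide, -0.42 ± 0.22 (SE; limma, adjusted p = 0.496). Its genotypes did not overlap in the IP, as was so for 17.4% of the probes tested there. The supernatant level of Gpi1 was 5.54, 5.14 and 5.62 in WT against 5.38, 4.98 and 5.38 in cKO, a difference of -0.19 ± 0.23 (adjusted p = 0.876) that turned to 0.11 within the scan.

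Gapdh levels in the IP overlapped between the genotypes. At the 3′ end they were 4.17, 4.53 and 4.49 in WT against 4.34, 4.46 and 4.51 in cKO, and at the 5′ end 3.51, 3.67 and 3.43 in WT against 3.28, 3.46 and 3.63 in cKO. The differences were 0.04 ± 0.22 and -0.08 ± 0.22 (SE; limma, adjusted p = 0.962 and 0.919).

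In the supernatant, where Gapdh is the brighter fraction, the 3′ end stood at 5.70, 5.39 and 5.67 in WT against 5.26, 5.30 and 5.41 in cKO. The 5′ end stood at 4.85, 4.60 and 5.02 in WT against 4.51, 4.45 and 4.67 in cKO. In each case 2 WT arrays lay above all cKO arrays and WT array 2 lay among them. The differences were -0.26 ± 0.20 and -0.28 ± 0.21 (SE; limma, adjusted p = 0.731 and 0.725), and -0.07 and -0.05 within the scan of 4 arrays. The higher supernatant levels of Gapdh were those of WT arrays 1 and 3, the arrays with the lowest share of probes above background in that channel, and the part of that share in the values was not tested.

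Pgk1 at its 3′ end had similar levels in both fractions. In the IP it stood at 4.80, 4.89 and 5.04 in WT against 4.43, 4.84 and 4.84 in cKO, and in the supernatant at 4.72, 4.31 and 4.48 in WT against 4.80, 4.39 and 4.49 in cKO. The differences were -0.21 ± 0.22 in the IP and 0.06 ± 0.22 in the supernatant (SE; limma, adjusted p = 0.754 and 0.985). Its low m6A ratio on array 1 of each genotype went with the highest supernatant level of that genotype and the lowest IP level. The 5′ probe of Pgk1 differed by -0.17 in the IP and -0.10 in the supernatant, near background, with every level between -3.86 and -3.30.

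Over both fractions 0 of 10 tests on these probes passed. The tests of the 5′ probe of Pgk1 add nothing to that count. In the supernatant it was well above background on 1 WT array and 3 cKO arrays. The genotypes overlapped for each of the 5 probes in each fraction. Among tested probes, 17.4% of 33242 in the IP and 16.7% of 30898 in the supernatant had genotypes that did not overlap. Of the probes tested in the IP 0.0722% were called, 0.0481% higher and 0.0241% lower in cKO. In the supernatant 0.278% were called, 0.259% higher and 0.0194% lower. In the IP the median difference of the 5 probes, which stand for 3 genes, was -0.17, the value of the 5′ probe of Pgk1. In the supernatant it was -0.19, the value of Gpi1. The medians over all tested probes were 0.01 and 0.05. With the scaling used here, the intervals of the 4 bright probes leave room for changes of up to 1.91-fold in the IP and 1.68-fold in the supernatant. Scaled to the median of all probes, their supernatant differences were -0.47 for Gpi1, -0.55 and -0.57 for Gapdh (3′, 5′) and -0.23 for Pgk1 (3′). In whole kidney, fewer cells of a type and less RNA per cell cannot be told apart.

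**Figure D4:**
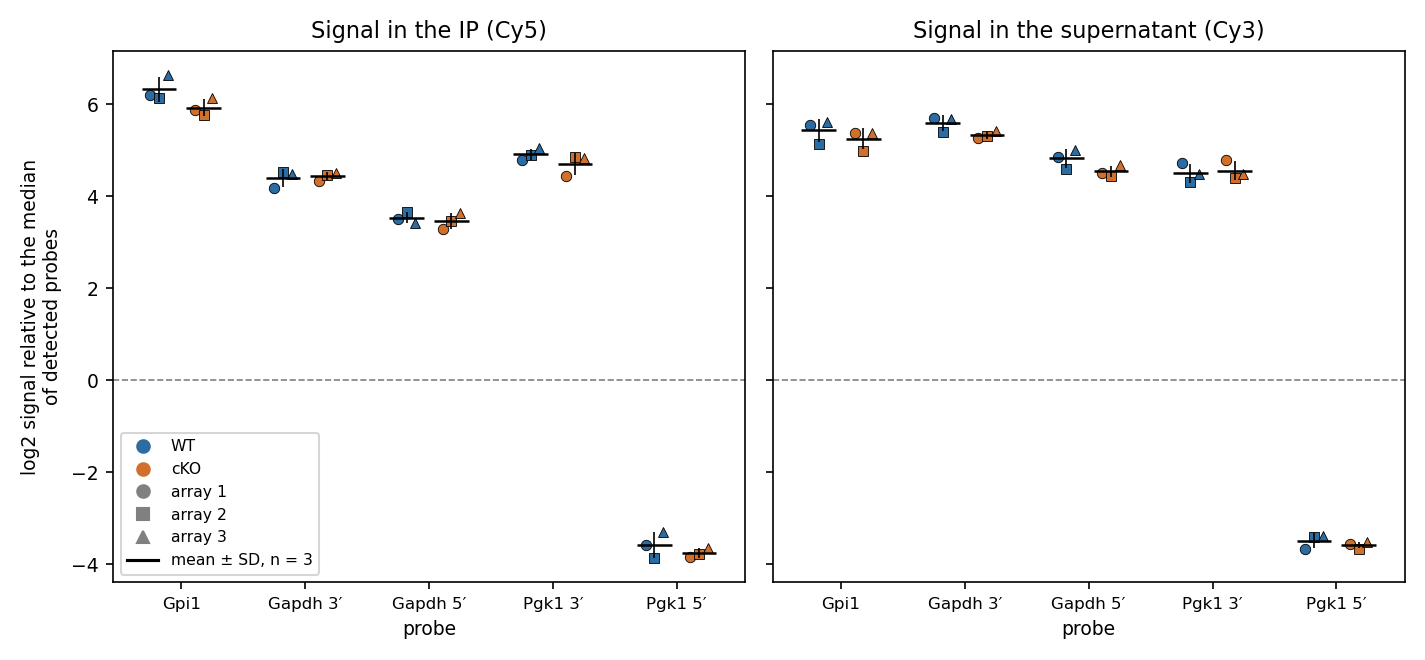
Levels in the IP and in the supernatant (log2 relative to the array median, vertical axis) of the 5 probes on each of the 6 arrays, with means and SD (n = 3) as black lines; levels of different probes are not comparable, since probes differ in binding. Gpi1 is higher in the IP than in the supernatant on every array, and both Gapdh probes are higher in the supernatant.

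The linear signals were far above background for 4 of the 5 probes. Gpi1 was among the bright probes, with a processed signal of 63720 to 103782 in the IP and 40712 to 58080 in the supernatant. The signal of Gapdh was 17108 to 34223 in the IP and 48119 to 68895 in the supernatant at the 3′ end. At the 5′ end it was 10826 to 18826 and 28027 to 39692. Pgk1 at its 3′ end gave 25002 to 44005 and 24789 to 34817. The spots of 1 probe on 1 array differed in ratio by an SD of 0.038 to 0.053 for Gpi1, so the spread between kidneys, not between spots, limits its precision.

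The patterns across arrays differed as well. The m6A ratio of Gpi1 followed that of Pgk1 at its 3′ end (Pearson's r = 0.942 over 6 arrays) and not that of Gapdh (r = 0.0174), and r was 0.171 between Gapdh and Pgk1. Among the other named genes with a ratio, Gpi1 was most like Acaa2, a mitochondrial thiolase of fatty acid oxidation (r = 0.978), Tm9sf1 (0.953) and Rab5a, a GTPase of early endosomes (0.909). The genes most like Gapdh were Prdx2, a peroxiredoxin (0.810), E2f1, a cell cycle transcription factor (0.665), and Olfr166, an olfactory receptor gene (0.628). For the 3′ end of Pgk1 they were Gpi1 (0.942), Rab5a (0.939) and Acaa2 (0.924). With the 5′ probe near background averaged in, they were Acaa2 (0.836), Gpi1 (0.805) and Rab5a (0.742). These values describe 6 arrays that share their centring and depth, and no test was made.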

How the data were processed

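The deposited intensity values are linear 2-colour scanner signals made with Agilent Feature Extraction 11.0.1.1, per the submitters' processing notes; the processed signals used here are background-subtracted and dye-normalised, per the file headers. Array and antibody steps follow the labels' protocols; the antibody label calls the supernatant samples input. No dyes were swapped.

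Here, spots marked as outliers were left out and log2 processed signals were averaged per probe, with limma (3.58.1) in R (4.3.3), files being read by the package data.table (1.17.8). Each channel was centred as described above. A probe was tested if well above background (at least 0.5 of its spots) on at least 3 arrays, in both channels for the ratio and in its own for a level. Genotypes, and ratios against 0, were fitted by lmFit and eBayes for two-sided tests. A probe was called at a p under 0.05 after Benjamini-Hochberg adjustment over all tested probes. Values, including detection flags, come from 62976 spots per array; symbols come from RefSeq (GRCm38.p6).

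The members and lists were chosen with earlier results of these data known. Named genes were all probes of the 3 members, Actb and, per member, the 3 named probes with the most similar ratio. Gene-pair tests and tests on probes of other species were added after seeing the data. The alternatives covered scaling, background correction (normexp offset 50), filters, blocks and left-out arrays. No sequences are shown.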

Additional observations from a re-analysis of the deposited data

Results flagged for a closer look

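The array also carries 8 control probes named for human and rat Gapdh and Pgk1, which no test above uses; the plot of differences within arrays shows those for Gapdh. In mouse kidney the supernatant signal of 5 of them was well above background on each of the 6 arrays. Their mean log2 supernatant levels were 4.73 for human Gapdh at the 3′ end, 1.89 for human Gapdh at the 5′ end, 3.39 for human Pgk1 at the 3′ end, 2.22 for rat Gapdh at the 3′ end and 2.05 for rat Gapdh at the 5′ end. No control sample without RNA is among the arrays.

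Their mean m6A ratios over the 6 arrays lay on the same side of the array median as those of the mouse probes, but differed in size. At the 5′ end of Gapdh the mean was -2.23 with the human probe, -1.89 with the rat probe and -1.18 with the mouse probe. The human Gapdh 3′ probe had -1.66, -1.03 and -1.62 in the WT kidneys and -1.51, -1.06 and -1.28 in the cKO kidneys, and the rat Gapdh 3′ probe had -1.93, -1.05 and -1.68 in WT against -1.49, -1.15 and -1.57 in cKO. The human Pgk1 3′ probe had 0.20, 0.85 and 0.60 in WT against -0.15, 0.64 and 0.48 in cKO, below 0 on cKO array 1 alone, as the mouse 3′ probe was. These probes may bind the mouse transcripts, which was not tested.

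The 3′ minus 5′ difference in m6A ratio, which did not pass for mouse Gapdh, was above 0 on 6 of 6 arrays for both other species. It was 0.87 ± 0.12 (SD, n = 6 arrays) with the human probes and 0.41 ± 0.25 with the rat probes, each with p = 0.031 in the exact two-sided sign-flip permutation test, the smallest that 6 arrays allow. These tests were chosen after seeing the data. The signal also differed between the ends, with mean supernatant levels of 4.73 (3′) and 1.89 (5′) for the human probes. Whether position, signal or probe binding accounts for the differences was not tested.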

How the results depend on the processing

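Across 19 alternative settings, 272 refitted genotype differences of the 5 probes gave 0 calls in limma's test, and 29 changed sign. Settings that changed only the filter, the variance model or the replicate block left each difference as it was, so its sign could not change. Both settings on the scan gave the same differences. The ratios of both Gapdh probes stayed past the threshold and below the median in both genotypes under all 16 alternatives. They ran from -1.63 to -0.98 (3′) and -1.73 to -1.07 (5′) in WT and from -1.04 to -0.70 and -1.23 to -0.94 in cKO. The 3 gaps between genes stayed above 0 on every array with other background corrections and with outlier spots kept. Their p thus stayed at 0.031 (exact sign-flip permutation), the smallest possible. Those tests were added after the data had been seen, so this p adds no support. The cause of a change was not tested. Few arrays limit every value, and signal near background limits the 5′ probe of Pgk1.

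The counts of all probes called moved. For the ratio, 1 became 14 (scaled to the median of all probes, 3 of them higher in cKO against 0 of 1), 47 (normexp), 115 (normexp, loess and Aquantile), 4 (background-subtracted signals) and 162 (detected on all 6 arrays). It became 0 with no filter, with trend and robust variance, with the replicate block, with the scan as a block and within the scan of 4 arrays, where 6617, 4579, 6247, 3714 and 5061 had an unadjusted p under 0.05 in limma. For the IP, 24 became 5, 4 (loess), 51 (detected on all arrays), 4 (no filter), 84 (trend and robust), 10 (replicate block), 2 (scan as a block) and 5 (within the scan). For the supernatant, 86 became 23 (loess), 19 (no filter), 197 (trend and robust), 0 (replicate block and scan as a block, with 3118 and 2097 at an unadjusted p under 0.05) and 161 (within the scan), and 80 of 86 were higher against 45 of 58 when scaled to the median of all probes. Leaving out 1 array gave 0 to 2 for the ratio, 0 to 28 for the IP and 0 to 136 for the supernatant.

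Uncalled values of either sign turned. Scaled to the median of all probes, the ratio differences of Gpi1 and of Pgk1 at both ends (3′, 5′) were 0.082, 0.031 and 0.23, the supernatant difference of Pgk1 3′ was -0.23, and the ratio of Pgk1 3′ was -0.032 in WT and -0.00026 in cKO. With normexp the ratio difference of Pgk1 5′ was 0.25 and the IP difference of Gapdh 5′ 0.021. With loess and Aquantile added, Pgk1 5′ had differences of 0.059 (ratio) and 0.0055 (IP) and ratios of 0.00058 in WT and 0.060 in cKO. With background-subtracted signals the ratio difference of Gpi1 was 0.015 and the supernatant difference of Pgk1 3′ -0.013, and the position difference of Pgk1, not read because its 5′ probe is near background, was 0.37 (p = 0.031, exact sign-flip permutation) in place of 0.41 (p = 0.125). With outlier spots kept the IP difference of Gapdh 3′ was -0.0061. With the scan as a block, and within the scan of 4 arrays, the ratio differences of Gapdh 3′, Gapdh 5′ and Pgk1 5′ were -0.029, -0.16 and 0.29, the IP differences of Gapdh 3′ and Pgk1 5′ -0.094 and 0.12, and the supernatant difference of Gpi1 0.11.

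Leaving out 1 array, the differences that changed sign ranged from -0.25 to 0.025 (ratio, Pgk1 5′), -0.073 to 0.11 (IP, Gapdh 3′), -0.16 to 0.011 (IP, Gapdh 5′) and -0.063 to 0.17 (supernatant, Pgk1 3′), the ratio of Pgk1 5′ in WT from -0.19 to 0.080 and that of Pgk1 3′ in cKO from -0.0077 to 0.40.

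The replicate numbers 1, 2 and 3 occur in both genotypes. The deviations of same-numbered arrays correlated at 0.325, 0.273 and 0.0805, not all over 0.1, and these arrays were not treated as pairs. Every array did correlate best with its own number, but for cKO array 3 this was nearly a tie (0.0805 with WT array 3, 0.0780 with WT array 2). The pattern is a hint from the data and not the design, so whether the arrays are pairs is not settled. With the replicate block 0 of 5 ratio differences passed.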
